A study of Mus musculus with 12 samples.

Results

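Wt1, Tcf21, Bnc1 and Bnc2 are transcription factor genes of the epicardium, the mesothelial sheet that covers the heart. They were taken as the rows of the deposited table that carry these 4 names, all 4 of which were found among its 17637 genes. The samples were layers dissected with forceps from hearts of CD1 mouse embryos, an outbred stock, at stage E16.5, and both groups were wild type with no other allele or treatment. Artery libraries came from the base of the great arteries and held its mesothelium with the tissue just beneath. Ventricle libraries came from the epicardium covering the ventricles together with the subepicardium. There were 6 artery and 6 ventricle libraries (polyA RNA), numbered by litter, since the embryos of a litter were pooled separately for the 2 regions.

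Wt1 encodes a zinc-finger factor that the embryonic epicardium makes at high levels and that is needed for epicardial cells to leave the sheet as mesenchyme. Tcf21 encodes a basic helix-loop-helix (bHLH) factor of the epicardium and of the fibroblast precursors that arise from it. Bnc1 and Bnc2 encode the basonuclins, a pair of related zinc-finger proteins. Basonuclin 1 is best known from skin keratinocytes, germ cells and mesothelium, and basonuclin 2 from mesenchymal cells and skin pigmentation. In a peeled layer, less of such an RNA can mean fewer epicardial cells or less RNA per cell, and bulk libraries cannot tell these apart.

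Libraries held 6.77 to 22.1 M reads, with artery 1 (6.77 M) and artery 6 (7.97 M) the smallest. Artery 1 had the lowest mean correlation of log values with its own group (0.914, against 0.955 to 0.965 in the other artery libraries), and artery 4 correlated more with the ventricle libraries (0.967) than with its own group (0.955). Results are therefore also given without them where they differ. The labelled tissue was checked with 8 mesothelial markers (Upk3b, Upk1b, Msln, Lrrn4, Krt19, Cldn15, Gpm6a and Muc16), which were present in every library. Their summed value was 1509.6 to 3051 in artery, highest in artery 4, and 2376 to 4733 in ventricle. Values throughout are the deposited normalized values, read counts as CPM of a scaled library size.

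Of the 4 genes, 3 were lower in the artery layers by limma, a linear model fitted to all genes together (adjusted p under 0.05), and Bnc2 did not pass. Among all 14779 tested genes, 11.8% were lower in artery by this test and 12.2% higher, 24.1% in all. With the litter as a block the shares were 12.6% lower and 24.5% in all, and the same 3 of the 4 genes passed. The order of the differences was Wt1, Bnc1, Tcf21 and Bnc2, from the largest to the smallest.

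Wt1 lies on chromosome 2, plus strand (chr2:105126529-105173616 in GRCm38). In the artery libraries it was lowest at 33.6 in artery 1, with a median of 54.7 and a highest value of 125 in artery 4. In ventricle it was 119 at the lowest, 171 at the median and 191 at the highest. Only artery 4 reached the range of the ventricle libraries, and it did so by passing ventricle 2 alone. Artery averaged 63.9 ± 32.8 and ventricle 163 ± 27.8 (SD, n = 6 each). On the log2 scale artery minus ventricle was -1.45 ± 0.25 (SE; limma adjusted p = 0.000916). Such differences are on the log2(value + 1) scale. Within litters the artery value was 23.7% of the ventricle value in litter 1, 45.5% in litter 2, 26.2% in litter 3, 69.2% in litter 4, 40.1% in litter 5 and 29.0% in litter 6. Wt1 was thus lower in artery in 6 of 6 litters, as were 13.9% of all tested genes, and by least in litter 4. A fit with the litter as a block gave the same difference with a smaller error (0.19, adjusted p = 0.000782, limma). The values rest on 231 to 2102 reads in artery and 2227 to 4091 in ventricle.

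Wt1os, a noncoding gene on the opposite strand, starts head to head with Wt1, with 18 bases between the genes in the annotation used and no overlap. Wt1os was described after the annotation was seen. Artery libraries averaged 4.94 ± 2.00 and ventricle libraries 10.8 ± 2.99 (SD, n = 6 each). Its log2 difference was -1.01 ± 0.24 (SE; limma adjusted p = 0.0069), and it was lower in artery in 6 of 6 litters. Both genes of this locus were therefore lower. The library kit and counting are not stated to keep the strand, so reads at the junction cannot be assigned.

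Tcf21 lies on chromosome 10, minus strand (chr10:22817281-22820174). It was the member with the most even values. In artery it ranged from 86.6 to 122 with a median of 91.0, and in ventricle from 159 to 202 with a median of 183. The 2 groups did not overlap, which was so for 4.25% of all tested genes in this direction and 11.9% in either. The artery mean was 96.7 ± 13.8 and the ventricle mean 181 ± 18.4 (SD, n = 6 each), so that the log2 difference was -0.90 ± 0.10 (SE; limma adjusted p = 2.76e-05). The artery value was 44.6% of the ventricle value in litter 1, 54.0% in litter 2, 44.5% in litter 3, 71.6% in litter 4, 50.6% in litter 5 and 58.5% in litter 6. Artery 4 was again the highest artery library. The relative spread between libraries (coefficient of variation) was 14.3% in artery and 10.2% in ventricle for Tcf21, against 51.3% and 17.1% for Wt1. Tcf21 is overlapped along its whole length by a noncoding gene on the other strand, Gm10824, which is not used here, and reads of these 2 genes cannot be separated.

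Bnc1 lies on chromosome 7, minus strand (chr7:81966672-81992292). In artery, 4 libraries lay between 31.5 and 34.5, artery 5 was at 53.9 and artery 4 at 88.0. In ventricle it ranged from 75.6 to 134 with a median of 112. As with Wt1, artery 4 was the only artery library within the ventricle range, above ventricle 2. Its artery mean was 45.7 ± 22.3 and its ventricle mean 109 ± 21.8 (SD, n = 6 each), and the log2 difference was -1.32 ± 0.23 (SE; limma adjusted p = 0.00111). Bnc1 was lower in artery in 6 of 6 litters, at 35.8% of the ventricle value in litter 1, 45.6% in litter 2, 30.1% in litter 3, 73.2% in litter 4, 40.3% in litter 5 and 25.5% in litter 6. With artery 4 left out, the artery mean was 37.3 ± 9.39 (SD, n = 5). A pseudogene on the other strand overlaps the start of Bnc1 by 291 bases.

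Bnc2 lies on chromosome 4, minus strand (chr4:84275095-84675275), and was the least abundant of the 4. It was at 2.10 in artery 1, 3.54 in artery 2, 2.39 in artery 3, 7.23 in artery 4, 3.77 in artery 5 and 1.77 in artery 6. In ventricle it ran from 3.22 to 6.35 with a median of 5.35. The groups overlapped, with artery 4 above every ventricle library and the artery value above the ventricle value in litters 2 and 4. The means were 3.47 ± 2.01 and 5.14 ± 1.07 (SD, n = 6 each). The log2 difference of -0.54 ± 0.24 (SE) did not pass (adjusted p = 0.124, limma), and its 95% interval ran from -1.06 to -0.02 before adjustment. The outcome rested on artery 4: without it the difference was -0.74 ± 0.19 (adjusted p = 0.0108, limma), and without artery 1 and artery 4 it was -0.68 ± 0.19 (adjusted p = 0.0139, limma). Depth limits this gene most, since 13 to 121 reads stood behind an artery value and 60 to 113 behind a ventricle value. With no pseudocount the difference was -0.71 ± 0.31 (adjusted p = 0.121, limma), which shows how far the added 1 compresses a gene at this level.

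**Figure D1:**
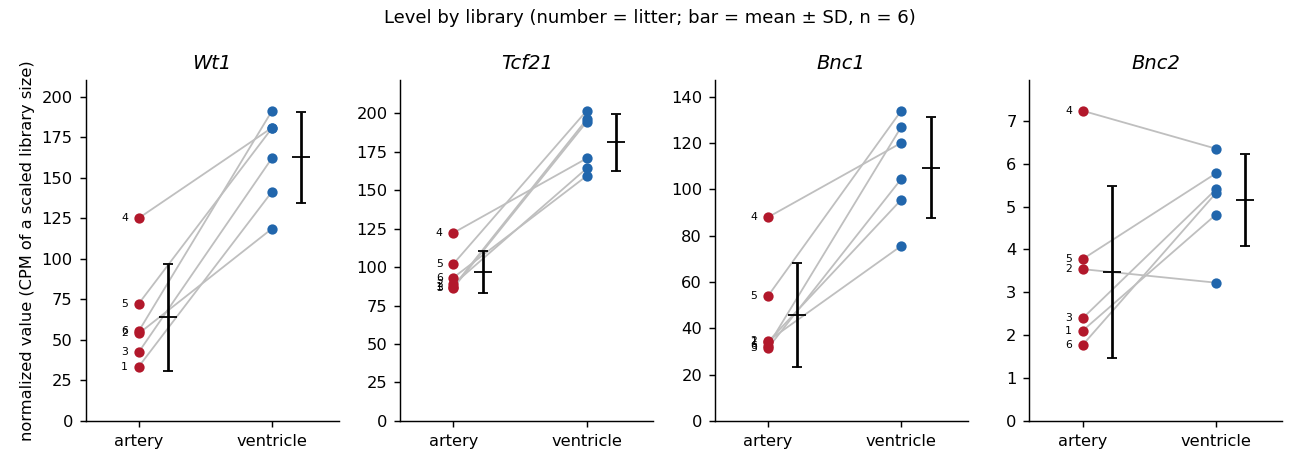
Normalized value (CPM of a scaled library size) of each gene in every library, with grey lines joining the 2 libraries of a litter, numbers giving the litter and black bars the mean ± SD (n = 6). Wt1, Tcf21 and Bnc1 are higher in ventricle in all 6 litters, while the lines of litters 2 and 4 fall toward ventricle for Bnc2, and artery 4 is the highest artery library in each panel.

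Sequencing lane, read from the library labels, was not balanced between the groups, and lane numbers may belong to different runs. In lane 1 (artery 1 and 3 against ventricle 3 and 6) the log2 differences were -2.19 for Wt1, -1.78 for Bnc1, -1.01 for Tcf21 and -0.97 for Bnc2. In lane 2 (artery 2, 4 and 5 against ventricle 1, 2, 4 and 5) they were -0.95 for Wt1, -0.91 for Bnc1, -0.81 for Tcf21 and -0.07 for Bnc2. Within lane 1 Wt1 (adjusted p = 0.0286, limma) and Bnc1 (adjusted p = 0.0307, limma) passed, and Tcf21 did not (adjusted p = 0.0670, limma). Within lane 2 Tcf21 passed (adjusted p = 0.00845, limma), and Wt1 (adjusted p = 0.0662, limma) and Bnc1 (adjusted p = 0.0998, limma) did not. Lane 1 holds artery 1, and lane 2 holds artery 4, so lane and library cannot be told apart here. Artery 6 was alone in lane 4.

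Levels were compared between genes per kilobase of annotated exon. Tcf21 was the most abundant, with an artery level of 41.2 ± 5.87 per kb and a ventricle level of 77.1 ± 7.83 (SD, n = 6 each). Wt1 followed at 10.3 ± 5.29 and 26.2 ± 4.49 per kb, close to Bnc1 at 9.85 ± 4.80 and 23.6 ± 4.70. In both groups the difference between Wt1 and Bnc1 was smaller than the spread between libraries. Both genes were measured in the same libraries and varied together (Pearson r = 0.975 in ventricle). That spread is therefore no measure of how sure their order is. Bnc2 was far below, at 0.42 ± 0.25 and 0.63 ± 0.13 per kb. Among all genes with an annotated length, the ventricle level put Tcf21 at percentile 96.5, Wt1 at 89.3, Bnc1 at 87.9 and Bnc2 at 22.2. Exon lengths were 6195 bases for Wt1, 2349 for Tcf21, 4646 for Bnc1 and 8174 for Bnc2, and a gene with several transcripts can use less than this union.

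The regions before the starts of Tcf21 and Bnc1, both lower in artery, are shown to let their base composition be compared. They come from the RefSeq promoter table on GRCm38.p6, in which 3 of the 4 genes matched (Wt1 was the exception), and capitals mark CG dinucleotides. Both are on the minus strand and end at the last base before the annotated start (for Tcf21 before the outermost start in either annotation), at chr10:22820175-22820393 and chr7:81992300-81992549.
Tcf21: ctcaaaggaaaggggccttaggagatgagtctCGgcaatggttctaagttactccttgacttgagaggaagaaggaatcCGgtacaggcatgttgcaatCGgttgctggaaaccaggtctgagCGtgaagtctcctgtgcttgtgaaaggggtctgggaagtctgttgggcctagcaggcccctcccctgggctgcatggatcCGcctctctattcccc
Bnc1: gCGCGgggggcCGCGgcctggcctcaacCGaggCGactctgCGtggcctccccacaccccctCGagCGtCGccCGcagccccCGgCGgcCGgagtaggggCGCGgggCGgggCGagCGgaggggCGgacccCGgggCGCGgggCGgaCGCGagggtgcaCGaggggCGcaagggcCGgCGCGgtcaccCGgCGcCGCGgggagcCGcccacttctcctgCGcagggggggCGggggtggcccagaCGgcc

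The printed Bnc1 region holds 39 CG dinucleotides in 250 bases and the Tcf21 region 5 in 219 bases. Over the 250 bases before the start, G and C made up 83.6% for Bnc1, 52.4% for Tcf21 and 35.6% for Bnc2, against a median of 52.4% over 32851 windows. The Bnc2 window lies at a start inside the longer annotated gene. On both strands of these windows, the E-box CAGCTG was found in none of the 3 genes and in 13.0% of all windows. GCGGGGGCG, a form of the site shared by WT1 and the EGR factors, was likewise in none of the 3 and in 2.57% of all windows.

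The 4 genes were set beside markers of the cell sheet that carries them. All 8 mesothelial markers were lower in artery (limma), with a median log2 difference of -1.04, against -0.04 over all tested genes. Lrrn4 (-1.48 ± 0.30, SE), the tight junction gene Cldn15 (-1.47 ± 0.24) and Msln, mesothelin (-1.01 ± 0.18), were examples, and the uroplakin Upk3b had the smallest difference (-0.60 ± 0.19). The count was 5 of 8 without litter 3 and also without litter 6. Within lane 1 and within lane 2 it was 0 of 8, where 101 and 343 genes of the whole table were lower, against 1746 over all libraries. Wt1 and Bnc1 thus lay near the markers with the largest differences, Tcf21 lay inside the range of the markers, and Bnc2 (-0.54) had a smaller difference than any of them.

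**Figure D2:**
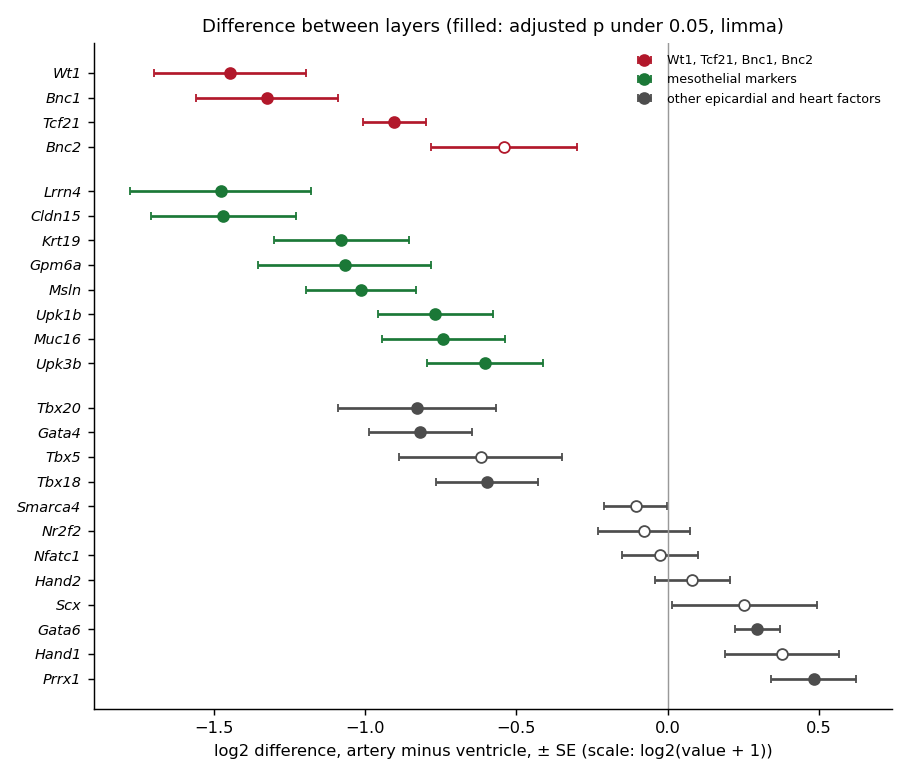
Log2 difference between artery and ventricle (± SE, on the log2(value + 1) scale) of the 4 genes, of 8 mesothelial markers and of 12 other factors of epicardium and heart, with filled points for adjusted p under 0.05 (limma). All points of the first 2 groups lie left of 0, with Wt1 at -1.45 and Upk3b at -0.60, whereas the other factors lie on both sides, from Tbx20 at -0.83 to Prrx1 at 0.48.

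To ask whether the 4 genes differed more than the sheet itself, the mean log2 value of the 8 markers (the mesothelial index) was subtracted in each library. The artery libraries had an index of 7.05 ± 0.43, and the ventricle libraries 8.07 ± 0.33 (SD, n = 6 each). Relative to it, Wt1 averaged -1.16 ± 0.34 (artery) and -0.74 ± 0.11 (ventricle), a difference of -0.42 with the same sign in 6 of 6 litters. Bnc1 differed by -0.30, also lower in 6 of 6 litters, Tcf21 by 0.12, lower in 3 of 6, and Bnc2 by 0.49, lower in 0 of 6. By limma none of these passed (adjusted p = 0.123 for Wt1, 0.277 for Bnc1, 0.653 for Tcf21 and 0.138 for Bnc2), in a fit where 86.2% of all genes passed, 0.413% lower and 85.8% higher, since the index itself was lower in artery. That fit gave most genes nearly the same error, 0.264 to 0.328 (5th to 95th percentile), since the spread of the index enters every gene. Each value was therefore also tested alone. The two-sided exact permutation test over 924 assignments of the libraries gave p = 0.00649 for Wt1, p = 0.0173 for Bnc1, p = 0.0152 for Bnc2 and p = 0.509 for Tcf21, unadjusted, in 4 tests added after the data were seen. These assignments ignore the pairing by litter, and sign flips over the litters were not run for these values. The exact test was not run over all genes, so no share stands beside these p-values. The index itself differed by -1.03, so a gene with no difference between the layers comes out higher relative to it. The higher value of Bnc2 relative to the markers is therefore no result about Bnc2. By limma, with that shared error, the interval of the Tcf21 difference was -0.39 to 0.64.

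Whether Wt1, Bnc1 and Bnc2 passed relative to the markers depended on the test. None passed in the main limma fit, whose error holds the spread of the index. All 3 had p under 0.05 by exact permutation, unadjusted, Bnc2 in the direction in which 85.8% of all genes passed by limma. The outcome also depended on the block and the marker set for Wt1, on the marker set for Bnc1 and on the pseudocount for Bnc2. With the litter as a block Wt1 passed by limma (adjusted p = 0.0489), as it did without artery 4 (-0.47, adjusted p = 0.0288, limma). Against the 3 markers Upk3b, Upk1b and Msln alone, both Wt1 (-0.65, adjusted p = 0.0146, limma) and Bnc1 (-0.53, adjusted p = 0.0408, limma) were lower in artery, and Tcf21 was at -0.11. With no pseudocount the Bnc2 difference was 0.33 and the exact permutation p = 0.143, with 2 of 6 litters lower in artery, against 0 of 6 with the added 1. Within lane 1 the Wt1 difference was -0.77, and within lane 2 it was -0.20, and neither passed.

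**Figure D3:**
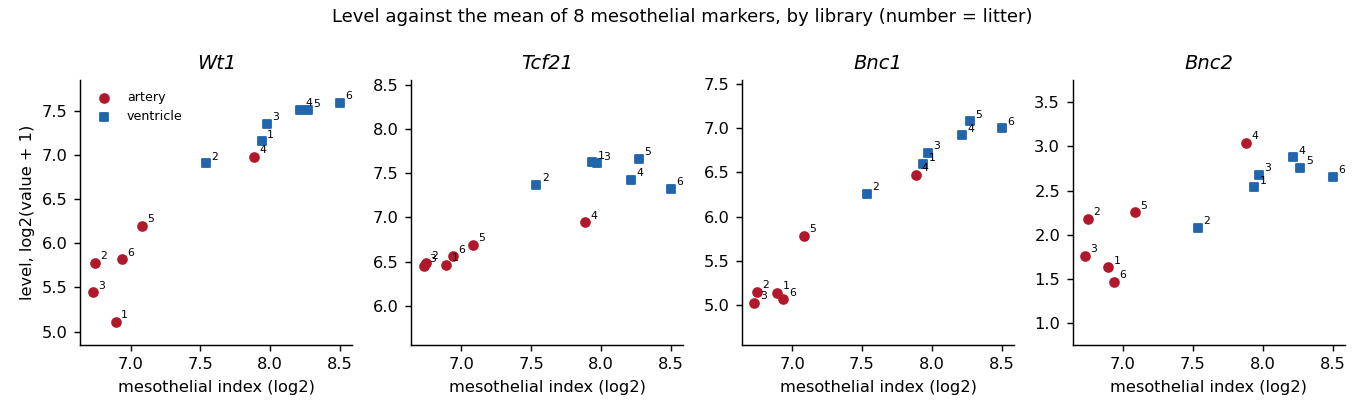
Level of each gene, log2(value + 1), against the mesothelial index (mean log2 value of 8 markers) in the 12 libraries, with circles for artery, squares for ventricle and numbers for the litter. Wt1 climbs with the index in both groups, and Bnc1 does so in ventricle. In artery the climb of Bnc1 rests on artery 4 and artery 5 (Pearson r = 0.950, and 0.105 without them). The Tcf21 values of the 6 ventricle libraries lie between 7.32 and 7.66 while the index runs from 7.54 to 8.50.

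Ratios between the 4 genes within a library show whether they differed to unlike extents, over 6 pairs. Wt1 and Bnc1 differed to a like extent: their log2 ratio averaged 0.45 ± 0.27 (artery) and 0.57 ± 0.08 (ventricle; SD, n = 6 each), a difference of -0.12 ± 0.11 (SE) that did not pass (exact permutation p = 0.355). The ratio of Bnc1 to Bnc2 was 2.97 to 3.59 in artery and 4.04 to 4.34 in ventricle on the log2 scale, with no overlap, and differed by -0.78 ± 0.11 (exact permutation p = 0.00216, adjusted 0.00649 over the 6 pairs). That of Wt1 to Bnc2 differed by -0.91 ± 0.14, with the same exact p, which is the smallest that 924 assignments allow. Both were lower in artery in 6 of 6 litters, and with no pseudocount they were -0.64 (exact permutation, adjusted p = 0.0130) and -0.76 (adjusted p = 0.0325). Sign flips over the 6 litters cannot go below p = 0.0313 and gave 0.0625 for both after adjustment (exact).

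The ratio of Wt1 to Tcf21 was lower in artery in 6 of 6 litters, but did not pass after adjustment. It was -0.71 ± 0.47 in artery and -0.17 ± 0.30 in ventricle on the log2 scale, a difference of -0.54 ± 0.23 (exact permutation p = 0.0368, adjusted 0.0736). Without artery 4 the difference was -0.69 (exact permutation, adjusted p = 0.00433), and without artery 1 and artery 4 it was -0.57 (adjusted p = 0.0190). The ratio of Tcf21 to Bnc1 was 1.16 ± 0.40 in artery and 0.74 ± 0.31 in ventricle, and did not pass either (difference 0.42 ± 0.21, exact permutation p = 0.0758, adjusted 0.114). It passed without artery 4 (0.56, exact permutation, adjusted p = 0.0260) and without artery 1 and artery 4 (0.55, adjusted p = 0.0429). The ratio of Tcf21 to Bnc2 differed by -0.36 ± 0.20 (exact permutation p = 0.106).

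**Figure D4:**
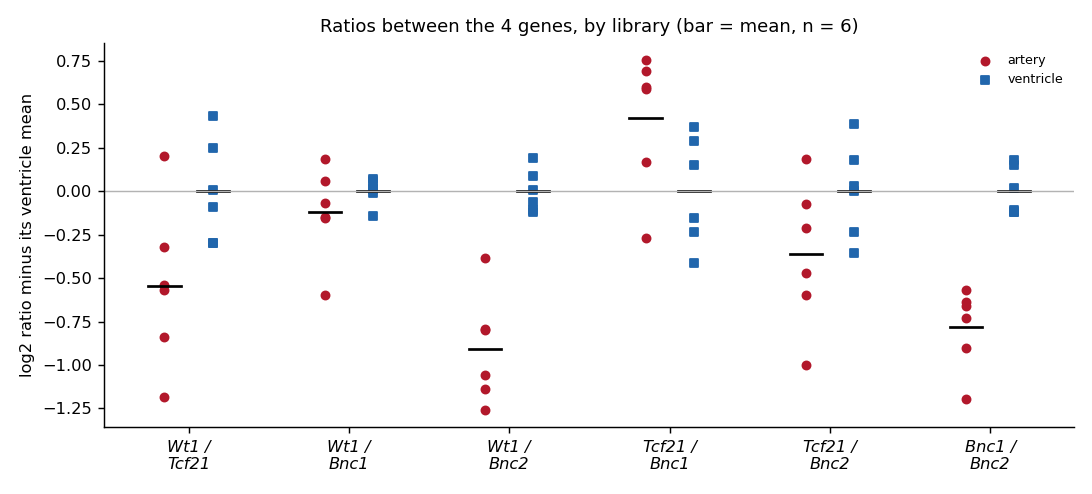
Log2 ratio of each pair of genes in every library, shown as the distance from the mean of the 6 ventricle libraries, with black bars for the group means. Artery and ventricle points are apart for Wt1 over Bnc2 and Bnc1 over Bnc2 and overlap for the other 4 pairs, including Wt1 over Tcf21.

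Within each group the 4 genes varied together to different degrees. These are relations over 6 libraries, 20 in all with those of the index, which share library depth and scaling. Adjusted p-values beside r are over the 20, and none of the 20 rho passed after adjustment (lowest adjusted p = 0.0833, exact permutation). Among the ventricle libraries Wt1 and Bnc1 had r = 0.975 (exact permutation p = 0.00556, adjusted 0.0278; rho = 0.829, p = 0.0583), and r = 0.837 without the 2 libraries farthest from the median. Among the artery libraries they had r = 0.912 (exact permutation p = 0.0194, adjusted 0.0389; rho = 0.714, p = 0.136), and r = 0.884 without artery 1 and artery 4. Wt1 also followed the mesothelial index in ventricle, with r = 0.963 (exact permutation p = 0.00278, adjusted 0.0278; rho = 0.943, p = 0.0167) and r = 0.974 without 2 libraries.

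Tcf21 followed Wt1 among the artery libraries, with r = 0.954 (exact permutation p = 0.00417, adjusted 0.0278; rho = 0.943, p = 0.0167) and r = 0.948 without artery 1 and artery 4. Tcf21 and the index had r = 0.971 in artery (exact permutation p = 0.00556, adjusted 0.0278; rho = 0.943, p = 0.0167), and r = 0.665 without artery 4 and artery 5. Among the ventricle libraries Wt1 and Tcf21 had r = 0.04 (exact permutation p = 0.939; rho = -0.26, p = 0.658), and Tcf21 and the index had r = -0.04 (exact permutation p = 0.936; rho = -0.09, p = 0.919). Whether the relation differs between the groups was not tested. The relation of Tcf21 to Bnc1 in artery (r = 0.976, exact permutation p = 0.0181; rho = 0.829, p = 0.0583) rested on artery 4 and artery 5, since r was -0.06 without them. That of Bnc1 to Bnc2 was r = 0.919 in artery (exact permutation p = 0.00972; rho = 0.829, p = 0.0583) and r = 0.890 in ventricle (exact permutation p = 0.0236; rho = 0.714, p = 0.136), and fell to 0.49 and 0.62 without 2 libraries each.

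The genes most like each member were ranked by Pearson r of log2(value + 1) over the 12 libraries, a measure that includes the difference between the groups. For Wt1 they were Zbtb8b (r = 0.993), Dnajc6 (0.987), which uncoats clathrin vesicles, the adhesion gene Cadm1 (0.986), the carbonic anhydrase Car13 (0.985) and Rhpn2 (0.985). Zbtb8b, which encodes a zinc-finger protein, was also first by deviations from the group means (r = 0.979), followed by Galnt12 (0.968), Dnajc6 (0.955), Cadm1 (0.952) and Flrt1 (0.952). Bnc1 had r = 0.977 with Wt1 and rank 17 for it, and Tcf21 had r = 0.924 and rank 161. For Bnc1 the nearest were 2010300C02Rik (0.994), Ccdc64 (0.990), Zbtb8b (0.985), Fam110c (0.982) and Rbm28 (0.981), the same 5 as by deviations.

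Genes near Tcf21 were others. They were Ly6h (r = 0.969), the semaphorin receptor Plxnc1 (0.964), the kinase gene Map3k5 (0.963), Lsp1 (0.960) and Ggt5 (0.957). By deviations from the group means the highest were 1110032F04Rik (0.846), Plxnc1 (0.833), Ly6h (0.822), Lrrtm1 (0.818) and the Schwann cell factor Sox10 (0.816). These are the top of 12114 ranked genes over only 12 libraries, and whether such values exceed chance was not tested. For Bnc2 the nearest were Bicc1 (0.948), which encodes an RNA-binding protein, Phf8 (0.941), Fosl2 (0.941), Fam73a (0.938) and Usp53 (0.938). By deviations they were Bicc1 (0.964), 4833403I15Rik (0.957), Usp53 (0.956), Pml (0.956) and Wwc1 (0.946).

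Other factors of epicardium and heart did not share 1 direction. Of 12 tested, 3 were lower and 2 higher in artery (limma), with a median difference of -0.05. Among all tested genes 11.8% were lower and 12.2% higher, and 2 of 12 higher is near that share. Gata4 fell by a log2 difference of -0.82 ± 0.17 (SE), the epicardial T-box gene Tbx18 by -0.60 ± 0.17 and Tbx20 by -0.83 ± 0.26. Gata6 (0.30 ± 0.07) and the mesenchymal homeobox gene Prrx1 (0.48 ± 0.14) rose. The lower count was 1 without litter 3, litter 5 or litter 6, and the higher count was 0 without litter 3 and 1 without litter 2, 4, 5 or 6, artery 3, artery 5, ventricle 2 or ventricle 6. Gata4, lower in artery like Tcf21, and Gata6, higher in artery, had no overlap between groups, as had 11.9% of all tested genes in either direction. Tbx18 had a smaller difference than 3 of the 4 genes described here.

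Genes that earlier work links to WT1 as targets went both ways, with 3 of 20 tested lower and 3 higher in artery (limma) and a median of -0.08. These shares are near the 11.8% lower and 12.2% higher among all tested genes, so the counts are no result about this list. Aldh1a2, which makes retinoic acid in the epicardium, was at 332 ± 57.4 in the ventricle layers and 109 ± 58.7 in the artery layers (SD, n = 6 each), and its log2 difference was -1.70 ± 0.23 (SE). Wnt4 (-1.29 ± 0.23) and Nphs1 (-1.26 ± 0.33), a gene of kidney podocytes that was at 2.81 ± 1.46 even in ventricle, also fell. The neurotrophin receptor Ntrk2 was higher by 4.56 ± 0.28, Egr1 by 1.11 ± 0.17 and Ctnnb1, beta-catenin, by 0.32 ± 0.10, a call that Ctnnb1 lost with the litter as a block (limma adjusted p = 0.0604). The factor Snai1 (0.07 ± 0.09, adjusted p = 0.641, limma) and E-cadherin Cdh1 (-0.17 ± 0.32, adjusted p = 0.730, limma), which WT1 is known to control in the epicardium, did not pass. Cdh1 was at 2.01 ± 1.46 and 2.11 ± 0.81 (SD, n = 6 each), near the lowest level tested. Egr1, whose protein binds a site like that of WT1, was the only 1 of 4 EGR genes abundant enough to be tested. Among 6 genes of proteins that bind or are named for WT1, the log2 difference of the corepressor gene Basp1 was -0.93 ± 0.19 and 5 did not pass, Cited2 by little (-0.35 ± 0.12, limma adjusted p = 0.0503). This 1 of 6 is near the 11.8% lower among all tested genes, so the count is no result about these 6 genes. The lower count was 2 without litter 4, artery 2, artery 4 or artery 6, and 1 gene was higher without litter 1, artery 1, artery 2 or artery 4.

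Of 9 bHLH relatives of Tcf21, 2 were lower and 1 higher in artery, and of 7 bHLH partners 1 was lower and 3 higher (limma). Among all tested genes 11.8% were lower and 12.2% higher. A count of 1 in these lists is near those shares. Msc (musculin), its close relative, averaged 1.85 ± 1.09 in artery against 7.01 ± 1.76 in ventricle (SD, n = 6 each). Its groups did not overlap, and its log2 difference was -1.55 ± 0.24 (SE; limma adjusted p = 0.000403). Tcf15 fell by -0.83 ± 0.18, whereas Twist2, a mesenchymal factor, rose by 2.21 ± 0.19. The other 6 of 9 relatives did not pass, and 2 relatives were higher without litter 4, artery 1, artery 4 or ventricle 5. Of the genes for E proteins, which pair with TCF21, Tcf4 fell by -0.47 ± 0.14, Tcf12 was at -0.42 ± 0.15 (adjusted p = 0.0526, limma) and Tcf3 at 0.18 ± 0.07 (adjusted p = 0.0671, limma). The Id genes, whose proteins block bHLH pairing, were higher in artery for 3 of 4: Id3 by 0.76 ± 0.14, Id1 by 0.44 ± 0.11 and Id2 by 0.78 ± 0.21. Of these 7 partners, 5 were higher without artery 1, and no partner was lower in 7 of 18 omissions of a litter or library.

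Genes of mesenchymal transition and of fibroblasts were counted in the same way, beside 11.8% lower and 12.2% higher among all tested genes. The 1 lower transition gene of 12 is near that share. Of 12 transition genes 3 were higher, Pdgfrb (0.90 ± 0.13), Zeb2 (0.56 ± 0.15) and vimentin Vim (0.33 ± 0.10), and N-cadherin Cdh2 was lower (-0.90 ± 0.23, limma). With the litter as a block Vim did not pass (limma adjusted p = 0.0520), which left 2. Leaving out litter 2 gave 1 higher gene and leaving out artery 1 gave 5, and without litter 3 Cdh2 was not called. Of 12 fibroblast genes 4 were higher and 0 lower (limma), or 2 higher with the litter as a block, led by Ddr2 (1.22 ± 0.17) and Lum (0.98 ± 0.19). The count was also 2 without litter 2, 3, 4, 5 or 6, artery 3, or ventricle 2, 4 or 6. A count of 2 of 12 in either list is near the 12.2% higher among all tested genes. Pdgfra, the receptor of fibroblast precursors, was at 269 ± 48.6 and 255 ± 42.8 (SD, n = 6 each), a difference of 0.08 ± 0.14. Tcf21, a gene of the same precursors, was at 53.4% of its ventricle mean in artery.

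Markers of other cell types were counted too, beside the 11.8% lower and 12.2% higher among all tested genes (limma). Their part in the results above was not tested. The summed value of 12 heart muscle genes was 4555 to 17452 in artery and 13460.0 to 35233 in ventricle, with 8 of 12 lower in artery (limma, Myl2 by -1.87 ± 0.42) and 2 of 12 without litter 3, 3 without litter 5 and 5 without litter 6, artery 3, artery 5, ventricle 2 or ventricle 6. That of 8 smooth muscle genes was 2039 to 3835 in artery and 800 to 1302 in ventricle, with 6 of 8 higher (Myh11 by 5.78 ± 0.25) and artery 4 the lowest artery library. For 8 erythroid genes it was 3222 to 18829 in artery, highest in artery 6, and 1853 to 3905 in ventricle, with 3 of 8 higher. That count was 0 without litter 2, 1 without litter 1, litter 3, artery 1, artery 3 or ventricle 1, 2, 3 or 5, and 5 with the litter as a block. Of 8 endothelial genes 2 were lower, Esam (-0.72 ± 0.13) and Kdr (-0.58 ± 0.18), with sums of 626 to 1146 and 952 to 1191, and the count was 1 without litter 1, 3, 5 or 6, artery 5, ventricle 1 or ventricle 3. Of 7 macrophage genes Csf1r was lower (-0.61 ± 0.17) and C1qb higher (0.34 ± 0.11), with sums of 304 to 397 and 310.3 to 429. These counts are near the shares over all tested genes and are no result about this list. The lower macrophage count was 0 without litter 3, 5 or 6, and the higher count was 0 without litter 1, 2, 3 or 6, artery 3, artery 6, or ventricle 1, 2, 4 or 6. Of 9 neuron and glia genes 2 were higher (Stmn2 by 1.45 ± 0.22) and 4 lower (Sox10 by -1.04 ± 0.21), with sums of 27.5 to 60.1 and 28.6 to 37.6, and the lower count was 2 without litter 3. Artery 4 had the highest mesothelial sum in artery and was also the highest artery library for Wt1, Tcf21 and Bnc1. Leaving it out could therefore only widen their differences (to -1.66, -0.97 and -1.53), and is no test of the part of other cells.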

How the data were processed

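The deposited table gives, per gene and library, a normalized signal made by the authors, which is not named in the file. Each value is (reads + 0.5) scaled per library to CPM: 100% of values were whole reads within 0.02 reads. Per the submitters' processing notes the tools were cutadapt 1.3, CASAVA 1.8.2 and RSEM 1.2.3, with build GRCm38, and the normalization tool is not given in the sources used here. Genes were named by the table's own symbols and placed with GENCODE M21 on GRCm38. The 14779 genes whose mean over all libraries reached 1 were tested by limma 3.58.1 (R 4.3.3; trended, robust prior) on log2(value + 1), adjusted by Benjamini and Hochberg over all of them, without a litter block. edgeR 4.0.16, which called 1465 genes lower and 1965 higher, and DESeq2 1.42.0 on recovered reads were alternatives. Single values were tested by exact permutation, two-sided. The procedure was tested on simulated data. Named genes were the 4 members, up to 3 genes per direction of each list, and the 5 most alike genes (mean of at least 5). Pdgfra, Upk3b, Snai1, Cdh1, Cited2, Tcf12 and Tcf3 were named after their values were seen.

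The members and lists were chosen with earlier results of these data known. Litter numbers pair the libraries, since each litter gave both pools per the labels. Deviations correlated by 0.215 on average within litters (lowest -0.014) and by -0.043 between them. Only 3 of 6 artery libraries correlated best with the ventricle library of their own litter. Litters are separate pools of animals. Reads per library were 6.77 to 22.1 M.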

Additional observations from a re-analysis of the deposited data

Results flagged for a closer look

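Dixon's test flagged 3 of 30 groups of 6 values, each time because artery 4 stood apart from the other artery libraries. Chance flags about 1 in 20 independent groups. These groups are not independent, since the index enters every level relative to the markers, so that rate does not apply. The Bnc2 value of artery 4 was 7.23, against 1.77 to 3.77 in the other 5. Its mesothelial index was 7.88, against 6.73 to 7.08. Its Tcf21 level relative to the markers was -0.94 on the log2 scale, against -0.43 to -0.26, so Tcf21 was not raised in this library by as much as the markers were.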

How the results depend on the processing

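The differences of Wt1, Tcf21 and Bnc1 kept their direction under every setting run and were past the threshold in 18 of 18 omissions of a litter or library, in ranges of -1.66 to -1.29, -0.99 to -0.85 and -1.53 to -1.20. They passed under every other setting except within a lane, where Tcf21 (-1.01, lane 1), Wt1 (-0.95, lane 2) and Bnc1 (-0.91, lane 2) did not, on fewer libraries. Bnc2 ranged from -0.74 to -0.41 over omissions and passed without artery 4, without litter 4 and without artery 1 and artery 4 (-0.68). It gave no value with a minimum mean of 5. Relative to the markers, Wt1 ranged from -0.48 to -0.29, Bnc1 from -0.36 to -0.24, Bnc2 from 0.40 to 0.58 and Tcf21 from -0.0098 to 0.22 over omissions, where Tcf21 reversed without litter 6 (-0.0098). Tcf21 also reversed within lane 2 (-0.060) and against 3 markers (-0.11). Calls appeared for Wt1 with the litter block (-0.42, adjusted p = 0.0489) and against 3 markers (-0.65), for Bnc1 against 3 markers (-0.53), and for Bnc2 with a pseudocount of 5 (0.71) and without artery 1 and artery 4 (0.52). By exact permutation alone, which was chosen after seeing the data, Wt1 (-0.42; -0.33 without artery 1 and artery 4; -0.43 with no pseudocount), Bnc1 (-0.30; -0.31; -0.31) and Bnc2 (0.49; 0.52) had p under 0.05. The cause was not tested. The Bnc2 values lie in the direction in which 85.8% of all genes passed relative to the markers (limma).

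Pair ratios over omissions ranged from -0.69 to -0.42 (Wt1 over Tcf21), -0.18 to -0.03 (Wt1 over Bnc1), -1.01 to -0.83 (Wt1 over Bnc2), 0.27 to 0.56 (Tcf21 over Bnc1), -0.52 to -0.23 (Tcf21 over Bnc2) and -0.83 to -0.70 (Bnc1 over Bnc2). Without artery 1 and artery 4, Wt1 over Tcf21 (-0.57) and Tcf21 over Bnc1 (0.55) passed. With a pseudocount of 5, Tcf21 over Bnc2 passed (-0.59). Under the replicate block (sign flips), Wt1 over Bnc2 (-0.91) and Bnc1 over Bnc2 (-0.78) did not, in a design whose smallest p is 0.0313. The litter block changed no other call of the 4 genes. Of the whole table, 2624 genes were lower without artery 1 and artery 4, 843 without litter 3, 999 without litter 5 and 1138 with reads thinned to the smallest library, against 1746. Depth limits Bnc2, at 13 reads in artery 6.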
